A study of Rattus norvegicus with 10 samples.

Results

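The genes described here are 7 genes used to recognise the epicardium, and they were taken by gene symbol from the 18025 genes of a deposited expression table. They are the transcription factor genes Wt1, Tcf21 and Tbx18, the retinoic acid enzyme gene Aldh1a2, and the genes Msln, Upk3b and Upk1b, which encode proteins of the surface of mesothelial cells. The hearts came from wild-type Sprague-Dawley rat fetuses at embryonic day 19.5. In the control group (CON), 3-month-old dams were injected with citric acid buffer alone. In the hyperglycemia group (HG), the dams were injected with streptozotocin in that buffer, a compound toxic to the insulin-producing beta cells, once a day on 3 days, and diabetes was checked by blood glucose 7 days later. The methods of the study place the injections after mating, whereas its introduction places the induced hyperglycemia before pregnancy. Each group held 5 RNA-seq libraries of heart tissue, and all fathers were normoglycemic. A legend of the study speaks of isolated fetal cardiomyocytes for the genes that differed, whereas the labels give heart tissue, which bears on what levels of epicardial genes stand for. The labels do not say which dam or litter a fetus came from, so that p-values measure only the spread between these libraries.

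The epicardium is the single layer of mesothelial cells that covers the outside of the heart. It grows over the heart from a cluster of cells near the venous pole, and part of its cells undergo an epithelial-to-mesenchymal transition (EMT), enter the muscle wall and become fibroblasts and the mural cells of coronary vessels. Epicardial cells also make retinoic acid and growth factors that act on the cardiomyocytes below them. After EMT, some of these genes are kept and others are lost. Tcf21 stays on in cardiac fibroblasts and Tbx18 in mural cells, while Msln and the uroplakin genes belong to the intact mesothelial sheet. In whole heart tissue, fewer cells of a type and less RNA per cell cannot be told apart.

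Values are FPKM, which are reads divided by the length of the gene and by the size of the library, so that levels can be compared between genes on this scale. In all 10 libraries the values were whole multiples of the value of 1 read, and the reads behind them were recovered, from 17644055 to 18243975 on genes per CON library and from 16676633 to 19114348 per HG library. Genes averaging 0.1 FPKM or more (14542 genes, among them all 7 epicardial genes) were compared as log2(FPKM + 0.1) with limma, and a gene was called at a Benjamini-Hochberg adjusted p under 0.05 over all genes tested. Many genes differed between these groups. Of the genes tested, 40.1% were called, 28.4% higher and 11.8% lower in HG, and the median log2 fold change over all of them was 0.09. The split between higher and lower depended on the scaling, since 70.7% of the called genes were higher in HG with FPKM as deposited against 47.1% after division by median-of-ratios factors and 53.0% with quantiles made equal. The markers of the labelled tissue were present, the 9 cardiomyocyte markers summing to between 17383 and 21666 FPKM per library, while 4 lung epithelium markers summed to at most 0.179 FPKM. The mean sum of liver markers was lower in HG, at 19.0 ± 33.2 FPKM for CON (0.968 to 78.3) and 1.16 ± 0.212 FPKM for HG (0.895 to 1.38; SD). The CON mean was set largely by its highest library, and the lowest CON sum lay inside the HG range. The two-sided exact permutation test of these sums gave p = 0.0397 (n = 5 libraries each, adjusted p = 0.0624 over 11 sums). Of the 6 liver genes, 4 were called lower and 0 higher in HG, where 11.8% and 28.4% of all genes were. Their median log2 fold change was -2.09, and all 6 had overlapping groups.

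Of the 7 epicardial genes, 4 were called. Tcf21, Tbx18 and Aldh1a2 were higher in HG, by 1.19-fold, 1.45-fold and 1.31-fold as ratios of mean FPKM, and in each of them every HG library lay above every CON library. Upk1b was lower in HG, at 0.561 of its CON mean, with overlapping groups. Wt1, Upk3b and Msln were not called. The counts are to be read against the background: 3 of 7 genes were called higher where 28.4% of all genes were, 1 of 7 was called lower where 11.8% of all genes were, and 3 of 7 had groups that did not overlap where 27.4% of all genes did. The study set its threshold at a 2-fold change, which is an absolute log2 fold change above 1 beside the adjusted p, and 0 of the 7 genes passed it, where 1.94% of all genes did. The median log2 fold change of the 7 genes was 0.17.

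The sequences before the start sites of the 4 called genes are shown because these are the members that passed the test between groups. The 250 bases upstream of each gene's start were taken from RefSeq on the GRCr8 build, which is a later build than the mRatBN7.2 named in the submitters' processing notes, and were matched by NCBI Gene identifier for 6 of the 7 genes (not Msln). Capitals mark matches to 4 motifs searched on both strands. The motifs were AGATAA, bound by GATA factors, CATTCC, bound by TEAD factors, AGGTCA, the core site of retinoic acid receptors, and GGTGTGA, bound by T-box factors. The runs are from Tcf21 (chr1:24520249-24520498, plus strand), Tbx18 (chr8:97559966-97560215, minus strand), Aldh1a2 (chr8:80758391-80758640, plus strand) and Upk1b (chr11:75459131-75459380, plus strand), each 5′ to 3′ and ending next to the start site.
Tcf21: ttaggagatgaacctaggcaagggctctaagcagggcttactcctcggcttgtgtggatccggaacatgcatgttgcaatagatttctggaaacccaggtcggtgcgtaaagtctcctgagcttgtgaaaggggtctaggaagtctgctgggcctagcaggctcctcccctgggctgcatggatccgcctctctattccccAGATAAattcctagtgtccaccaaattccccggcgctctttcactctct
Tbx18: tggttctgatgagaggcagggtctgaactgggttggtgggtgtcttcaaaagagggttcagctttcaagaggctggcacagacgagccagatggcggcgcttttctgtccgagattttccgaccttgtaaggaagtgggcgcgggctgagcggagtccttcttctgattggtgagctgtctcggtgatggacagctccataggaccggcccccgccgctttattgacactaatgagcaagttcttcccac
Aldh1a2: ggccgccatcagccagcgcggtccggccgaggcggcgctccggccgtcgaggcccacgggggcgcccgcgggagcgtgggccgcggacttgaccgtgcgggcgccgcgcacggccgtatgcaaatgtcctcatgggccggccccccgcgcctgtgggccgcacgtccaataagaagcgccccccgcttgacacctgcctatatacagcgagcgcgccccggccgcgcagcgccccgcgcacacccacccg
Upk1b: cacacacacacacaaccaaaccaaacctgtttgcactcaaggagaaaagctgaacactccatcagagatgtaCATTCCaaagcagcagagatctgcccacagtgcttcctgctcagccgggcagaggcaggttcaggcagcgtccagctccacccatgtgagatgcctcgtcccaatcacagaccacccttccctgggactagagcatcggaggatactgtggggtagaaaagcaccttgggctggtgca
The Tcf21 window held 1 GATA motif, beginning at position -49 from the start site, a match found in 10.3% of 33469 rat promoter windows of this length. The Upk1b window held 1 TEAD motif, beginning at position -178 from it, a match found in 12.1% of windows, and neither match overlapped one of another motif. No match to the 4 motifs was found in the windows of Tbx18 and Aldh1a2, nor in those of Wt1 and Upk3b, which are not printed. The retinoic acid receptor core site was present in 14.1% of all windows and the T-box motif in 3.22%. The windows also differed in base composition, with 77.2% G and C in Aldh1a2 and 71.6% in Wt1, against 53.6% to 56.4% in the other 4 genes and a median of 51.2% over all windows.

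**Figure D1:**
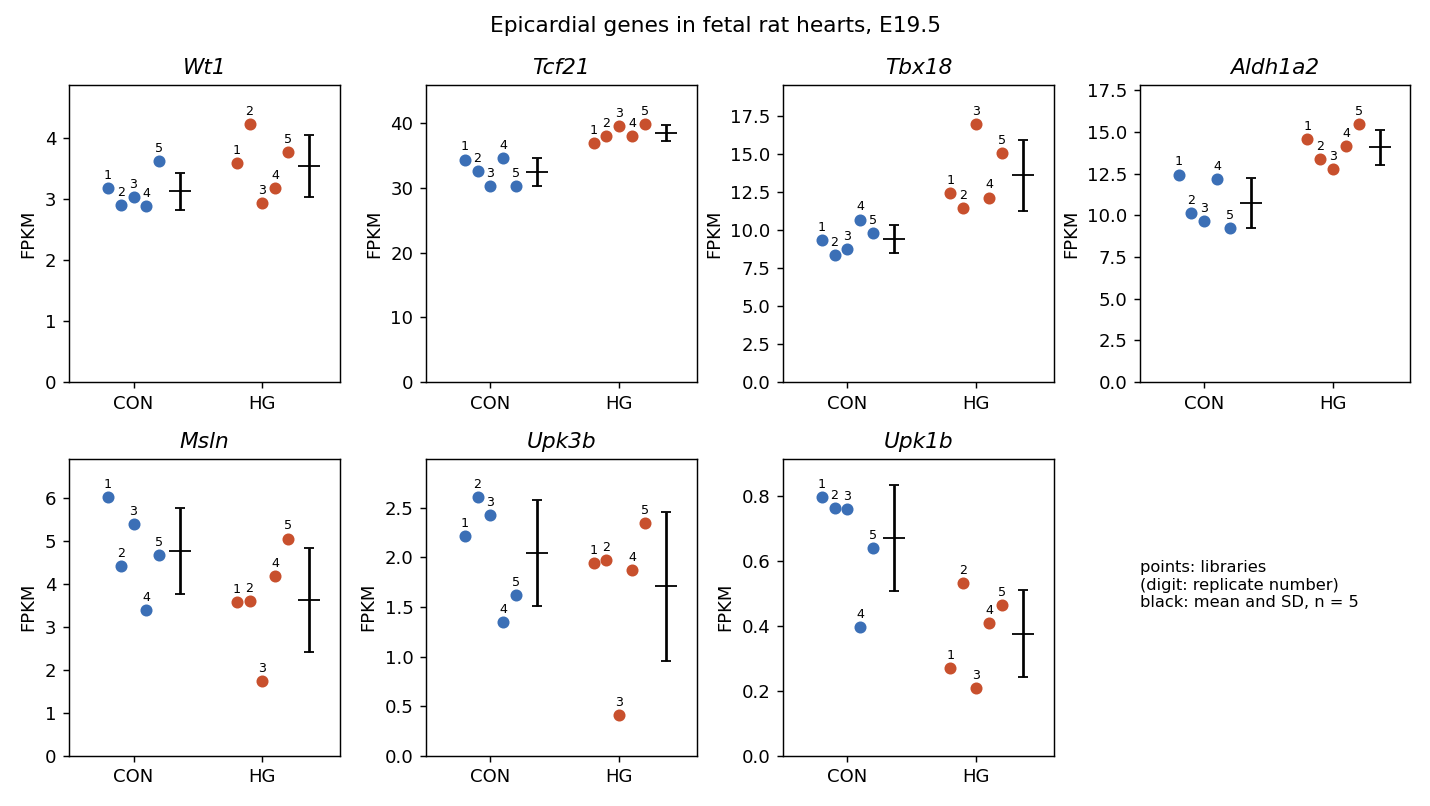
FPKM of the 7 epicardial genes in each library (points, numbered by replicate) of CON and HG fetal hearts, with the mean and SD of each group (black, n = 5), on axes that start at 0. The HG libraries sit above all CON libraries in Tcf21, Tbx18 and Aldh1a2, overlap them in the other genes, and HG replicate 3 is the lowest point in Msln, Upk3b and Upk1b.

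Tcf21 (NCBI Gene 252856), a basic helix-loop-helix factor that the fibroblast lineage of the epicardium requires, had the highest level of the 7 genes. Its values were 34.4, 32.7, 30.4, 34.7 and 30.3 FPKM in CON replicates 1 to 5 and 36.9, 38.1, 39.6, 38.1 and 40.0 FPKM in HG replicates 1 to 5. All HG libraries were above all CON libraries, and the gap between the groups was small beside the level, from 34.7 to 36.9 FPKM. The mean rose from 32.5 ± 2.11 FPKM for CON to 38.5 ± 1.25 FPKM for HG (SD, n = 5 a group), a log2 difference of 0.25 with a standard error of 0.0469 (95% interval 0.14 to 0.35; limma, adjusted p = 0.00139). The spread between libraries was the narrowest of the 7 genes, with a coefficient of variation of 6.50% in CON and 3.23% in HG. With median-of-ratios factors the log2 fold change of Tcf21 was 0.16 (adjusted p = 0.0203 from limma, the highest of all alternatives).

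Tbx18 (NCBI Gene 315870) encodes a T-box factor of the proepicardium, the epicardium and the sinus horn. It had 9.35, 8.37, 8.73, 10.7 and 9.78 FPKM in CON replicates 1 to 5 and 12.4, 11.4, 17.0, 12.1 and 15.0 FPKM in HG replicates 1 to 5. The lowest HG library lay above the highest CON library, and HG replicates 3 and 5 stood above the other three HG libraries. Tbx18 rose most of the 7 genes, from 9.38 ± 0.907 FPKM to 13.6 ± 2.34 FPKM (SD, n = 5 a group), a log2 difference of 0.52 with a standard error of 0.105 (95% interval 0.29 to 0.75; limma, adjusted p = 0.00210). Without HG replicate 3, its highest library, the log2 fold change was 0.44 (adjusted p = 0.00367).

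Wt1 (NCBI Gene 24883), a zinc finger factor needed for the epicardium to form and for its EMT, had 3.18, 2.90, 3.02, 2.87 and 3.62 FPKM in CON replicates 1 to 5. In HG replicates 1 to 5 it had 3.58, 4.23, 2.93, 3.18 and 3.76 FPKM. The groups overlapped, with 2 of 5 HG libraries above the highest CON library, and the counts behind these values were 348 to 532 reads per library. The means were 3.12 ± 0.304 FPKM for CON and 3.53 ± 0.506 FPKM for HG (SD, n = 5 a group), a log2 difference of 0.17 with a standard error of 0.103 (limma, adjusted p = 0.213). The 95% interval of the log2 fold change of Wt1 ran from -0.05 to 0.39, which includes 0 and the change of Tcf21.

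Aldh1a2 (NCBI Gene 116676) encodes the dehydrogenase that makes retinoic acid from retinaldehyde in the embryo, and in the late fetal heart it is mainly an epicardial enzyme. Its values were 12.4, 10.1, 9.65, 12.2 and 9.24 FPKM in CON replicates 1 to 5 and 14.6, 13.4, 12.8, 14.2 and 15.5 FPKM in HG replicates 1 to 5. CON replicates 1 and 4 came close to the lowest HG library without reaching it. The mean of Aldh1a2 rose from 10.7 ± 1.49 FPKM to 14.1 ± 1.06 FPKM (SD, n = 5 a group), a log2 difference of 0.40 with a standard error of 0.0880 (95% interval 0.20 to 0.59; limma, adjusted p = 0.00368). Under the alternatives its adjusted p lay between 0.00186 and 0.0191.

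Msln (NCBI Gene 60333) encodes mesothelin, a glycoprotein anchored in the membrane of mesothelial cells that binds the mucin encoded by Muc16. Its values were 6.01, 4.42, 5.40, 3.38 and 4.66 FPKM in CON replicates 1 to 5 and 3.58, 3.59, 1.73, 4.18 and 5.06 FPKM in HG replicates 1 to 5. The groups overlapped, HG replicate 3 was the lowest of the 10 libraries and CON replicate 4 the lowest of CON. The means were 4.77 ± 1.00 FPKM for CON and 3.63 ± 1.22 FPKM for HG (SD, n = 5 a group), a log2 difference of -0.44 with a standard error of 0.238 (95% interval -0.96 to 0.08; limma, adjusted p = 0.164). Without HG replicate 3 the log2 fold change of Msln was -0.20 (adjusted p = 0.347).

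Upk3b (NCBI Gene 360790) encodes a uroplakin, a membrane protein named after the umbrella cells of the bladder and also made by mesothelium. It had 2.22, 2.60, 2.43, 1.35 and 1.62 FPKM in CON replicates 1 to 5 and 1.94, 1.98, 0.409, 1.87 and 2.34 FPKM in HG replicates 1 to 5. A single library set the difference between the group means. HG replicate 3 held 26 reads of Upk3b, whereas the other nine libraries held at least 90 reads, and the other HG libraries lay within the CON range. The means were 2.04 ± 0.537 FPKM for CON and 1.71 ± 0.749 FPKM for HG (SD, n = 5 a group), a log2 difference of -0.39 with a standard error of 0.369 (limma, adjusted p = 0.437). Without HG replicate 3 the log2 fold change of Upk3b was 0.027 (standard error 0.177, 95% interval -0.36 to 0.42, adjusted p = 0.924).

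Upk1b (NCBI Gene 303924) encodes a tetraspanin that pairs with Upk3 proteins in the bladder, and it had the lowest level of the 7 genes. Its values were 0.796, 0.762, 0.759, 0.396 and 0.640 FPKM in CON replicates 1 to 5 and 0.269, 0.532, 0.208, 0.408 and 0.463 FPKM in HG replicates 1 to 5. In 4 of 5 CON libraries Upk1b was above the highest HG library, and CON replicate 4 lay inside the HG range. The mean fell from 0.671 ± 0.164 FPKM to 0.376 ± 0.135 FPKM (SD, n = 5 a group), a log2 difference of -0.71 with a standard error of 0.230 (95% interval -1.21 to -0.21; limma, adjusted p = 0.0268). The call rests on 7 to 28 reads per library and on single libraries, because without CON replicate 1, 2 or 3 or HG replicate 1 or 3 the adjusted p of Upk1b lay between 0.0575 and 0.0637. With the replicate number as a block it was 0.0485, and with voom on the recovered reads 0.0378.

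**Figure D2:**
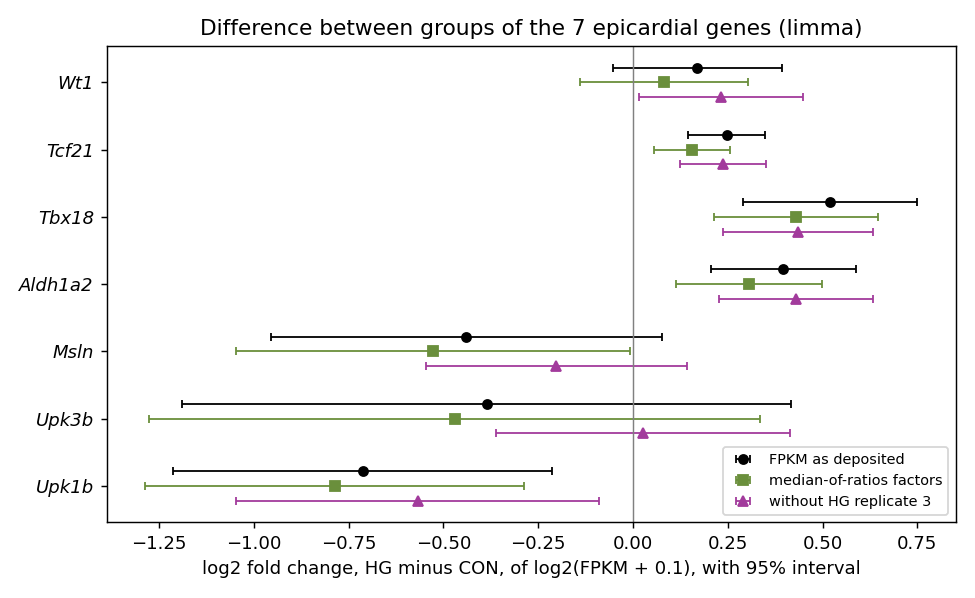
Log2 fold change of each epicardial gene between groups (HG minus CON, on log2(FPKM + 0.1)) with its 95% interval from limma, for FPKM as deposited (black circles), after median-of-ratios factors (green squares) and without HG replicate 3 (purple triangles). The intervals of Tcf21, Tbx18 and Aldh1a2 lie above 0 and that of Upk1b below 0 in all 3 fits, while the estimate for Upk3b moves from -0.39 to 0.027 when HG replicate 3 is left out and the adjusted p of Upk1b is then 0.0637.

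The order of levels was alike in both groups. Tcf21 stood alone at the top, above the values of 85.8% of the genes tested, and gave 51.4% of the summed FPKM of the 7 genes in CON and 51.1% in HG. Aldh1a2 and Tbx18 came next with overlapping ranges, Aldh1a2 being the higher one in 4 of 5 libraries of each group. Msln and Wt1 followed and also overlapped. Msln was above Wt1 in 5 of 5 CON libraries and in 2 of 5 HG libraries. Upk3b was below Wt1 in every library, and Upk1b was the lowest in every library, above only 13.6% of the genes tested by its mean. The ranges of Upk3b and Upk1b overlapped in HG but not in CON.

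The summed FPKM of the 7 genes was 63.2 ± 3.66 in CON (59.9 to 68.4) and 75.4 ± 3.78 in HG (73.1 to 82.1; SD, n = 5 libraries each). The part of this sum held by Msln, Upk3b and Upk1b was 11.9 ± 2.47% for CON and 7.54 ± 2.53% for HG (SD, n = 5 a group), and it was 8.64 ± 0.711% in HG without replicate 3 (SD, n = 4). The ratio of Msln to Tcf21 was 0.148 ± 0.0330 for CON and 0.0943 ± 0.0310 for HG (SD, n = 5 a group). These shares are given as a description, and were not tested. HG replicate 3 had the highest Tbx18 and the lowest Msln, Upk3b and Upk1b of the 10 libraries, and within HG it also had the lowest Wt1 and Aldh1a2. Within CON, replicate 4 had the highest Tcf21 and Tbx18 and the lowest Msln, Upk3b and Upk1b, and its Wt1 was the lowest of the 10 libraries.

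The other mesothelial and epicardial genes, 18 of them above the filter out of 20 looked up, gave 3 genes higher and 1 lower in HG, where 28.4% and 11.8% of all genes were called, with a median log2 fold change of 0.23 against 0.09 over all genes. Pdpn, which encodes podoplanin, a mucin-type glycoprotein of mesothelium and lymphatic vessels, rose from 11.6 ± 0.971 to 16.1 ± 0.567 FPKM with no overlap (SD, n = 5 a group), a log2 difference of 0.47 (limma, adjusted p = 7.37e-05). Podxl, which encodes the sialomucin podocalyxin of mesothelium and endothelium, fell from 27.5 ± 1.57 to 23.7 ± 1.62 FPKM, also with no overlap (SD, n = 5 a group), a log2 difference of -0.21 (limma, adjusted p = 0.00875). Itga4 and Bnc1 were close to the threshold. Itga4, the integrin subunit through which the epicardium holds to the heart, had a log2 difference of 0.60 (adjusted p = 0.0449), and Bnc1, a zinc finger factor of mesothelium, had 0.59 (adjusted p = 0.0467), and both lost the call with median-of-ratios factors (adjusted p = 0.0879 and 0.0901). Itga4 was also not called without CON replicate 1, 2 or 4 or HG replicate 1, 3, 4 or 5, and Bnc1 without CON replicate 1, 4 or 5 or HG replicate 1, 2, 4 or 5. The partner of mesothelin, Muc16, was at 0.330 ± 0.0731 FPKM for CON and 0.296 ± 0.157 FPKM for HG (SD, n = 5 a group), a log2 difference of -0.22 (limma, adjusted p = 0.592). HG replicate 3 had 0.0689 FPKM of Muc16 against 0.221 to 0.480 FPKM in the other HG libraries. In Lrrn4, a gene of mesothelial cells singled out after its values were seen, that library had 0.445 FPKM against 1.04 to 1.98 FPKM in the others. The low values did not extend to the whole list. Of these 18 genes, HG replicate 3 was the lowest of the 10 libraries in 4 and the highest in 4. Itga4, for example, had 1.68 FPKM there against 1.00 to 1.26 FPKM in the other HG libraries.

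**Figure D3:**
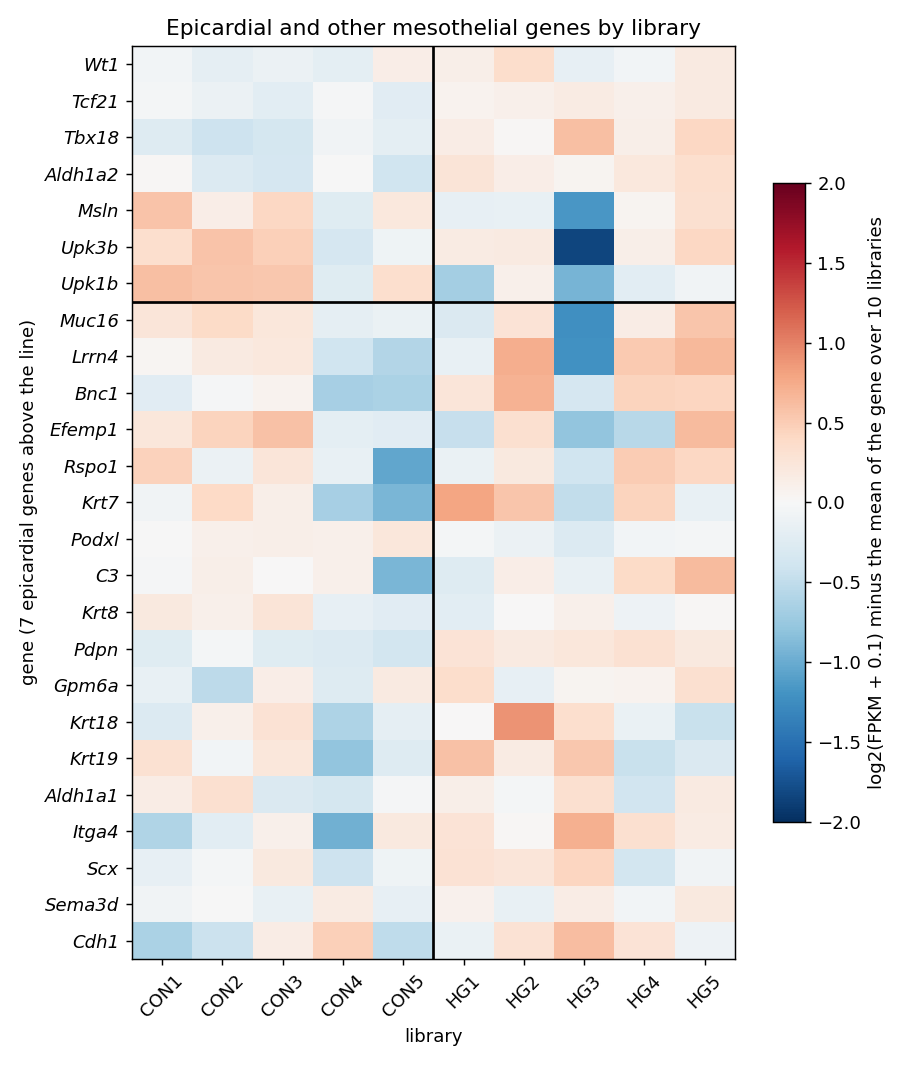
Difference of log2(FPKM + 0.1) from the gene's mean over the 10 libraries (colour, from -2 to 2) for the 7 epicardial genes (above the line) and 18 other mesothelial and epicardial genes, by library. HG replicate 3 is the bluest column in Msln, Upk3b, Upk1b, Muc16 and Lrrn4, and is red in Tbx18 and Itga4.

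Among genes of the retinoic acid pathway other than Aldh1a2, 16 of 19 passed the filter, 4 were higher and 1 lower in HG (28.4% and 11.8% of all genes), and the median log2 fold change was 0.16. Dhrs3, a reductase that returns retinaldehyde to retinol and is itself induced by retinoic acid, rose from 5.17 ± 0.390 to 6.60 ± 0.593 FPKM (SD, n = 5 a group), a log2 difference of 0.35 (limma, adjusted p = 0.00295). Crabp2, which carries retinoic acid to the nucleus, had a log2 difference of 0.37 (adjusted p = 0.0442, and 0.118 with median-of-ratios factors), and Aldh1a3, a second retinaldehyde dehydrogenase, had 0.38 (adjusted p = 0.0463, and 0.126 with those factors). Crabp2 was also not called without CON replicate 2, 3, 4 or 5 or HG replicate 2, 3 or 5, and Aldh1a3 without CON replicate 1, 2, 4 or 5 or HG replicate 2, 3, 4 or 5. The receptor gene Rxra fell from 18.9 ± 0.675 to 16.8 ± 1.28 FPKM (SD, n = 5 a group), a log2 difference of -0.17 (limma, adjusted p = 0.0232). It was not called with the replicate block or without CON replicate 3 or 4 or HG replicate 4, where its adjusted p reached at most 0.0556. The remaining partners of Aldh1a2 did not pass the test with FPKM as deposited. Rdh10, which makes the retinaldehyde that Aldh1a2 uses, had a log2 difference of -0.28 (adjusted p = 0.0641), the degrading enzyme gene Cyp26b1 had 0.29 (adjusted p = 0.0858), and the receptor genes Rara and Rarb had 0.12 (adjusted p = 0.0897) and 0.07 (adjusted p = 0.482). The lowest adjusted p over the alternatives was 0.0141 for Rdh10, 0.0470 for Cyp26b1, 0.0216 for Rara and 0.316 for Rarb (limma).

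All 24 genes of epicardial signals, receptors and EMT regulators were tested, of which 12 were higher and 3 lower in HG (28.4% and 11.8% of all genes), and the median log2 fold change was 0.21. Tgfbr3, the betaglycan coreceptor for TGF-beta ligands that coronary vessel formation requires, fell from 10.1 ± 0.775 to 7.03 ± 0.370 FPKM with no overlap (SD, n = 5 a group), a log2 difference of -0.51 (limma, adjusted p = 6.31e-05). The receptor genes Fgfr1 and Fgfr2, through which FGF signals act on epicardium-derived cells and on the myocardium, rose with log2 fold changes of 0.38 (adjusted p = 9.61e-05) and 0.42 (adjusted p = 0.00124), both with no overlap. Tmsb4x, which encodes the actin-binding peptide thymosin beta 4, rose from 644.1 ± 34.6 to 765.6 ± 34.9 FPKM (SD, n = 5 a group), a log2 difference of 0.25 (limma, adjusted p = 0.00114). These 4 genes were called in the same direction under every alternative.

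Of the 16 transcription factors and partners, 6 were higher and 1 lower in HG (28.4% and 11.8% of all genes), and the median log2 fold change was 0.14. Basp1, a corepressor that binds the Wt1 protein, rose from 23.5 ± 2.24 to 35.2 ± 3.09 FPKM with no overlap (SD, n = 5 a group), a log2 difference of 0.58 (limma, adjusted p = 8.94e-05). Both GATA factor genes of the epicardium and myocardium were called, and in opposite directions. Gata4 rose from 85.2 ± 3.02 to 102.2 ± 4.19 FPKM (log2 difference 0.26, adjusted p = 0.000214), whereas Gata6 fell from 70.7 ± 2.11 to 57.0 ± 1.08 FPKM (log2 difference -0.31, adjusted p = 2.17e-05; SD, n = 5 each, limma). Yap1, the TEAD coactivator, had a log2 difference of 0.16 (adjusted p = 0.00393), which was 0.07 (adjusted p = 0.172) with median-of-ratios factors. Of the uroplakin family, 3 genes passed the filter, Upk1b being the only one called. Upk1a, the other tetraspanin of the family, was at 0.0644 ± 0.0456 FPKM for CON and 0.169 ± 0.105 FPKM for HG (SD, n = 5 a group), a log2 difference of 0.66 (limma, adjusted p = 0.0976, and 0.0362 at the lowest of the alternatives).

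**Figure D4:**
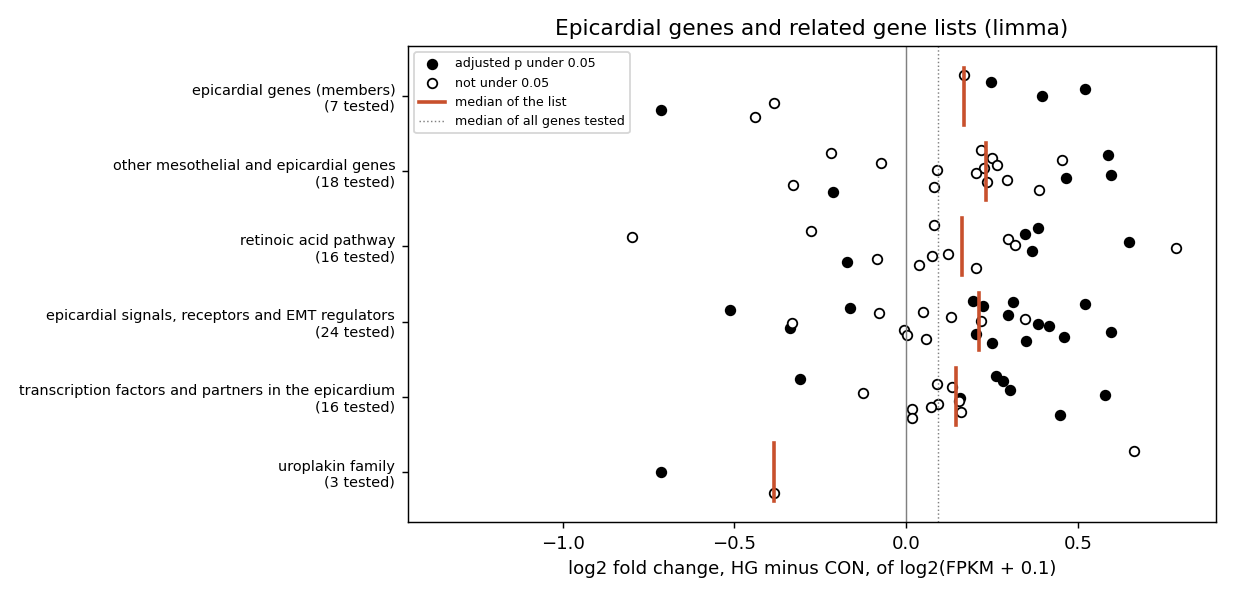
Log2 fold change (HG minus CON, on log2(FPKM + 0.1)) of each tested gene in the epicardial genes and 5 related lists, filled where the adjusted p from limma was under 0.05. Red bars mark list medians (0.17 for the epicardial genes and 0.23, 0.16, 0.21, 0.14 and -0.39 for the lists below them), and the dotted line marks the median of all genes tested, 0.09.

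Markers of the cell types that share some of these genes, or that make up most of the tissue, were summed in the same libraries. The 15 fibroblast markers, a lineage in which Tcf21 stays on, summed to 2783 to 3091 FPKM in CON and 2546 to 2934 FPKM for HG (two-sided exact permutation test, n = 5 libraries each, p = 0.0635, adjusted p = 0.0873 over 11 sums). Of these 15 genes, 3 were called higher and 8 lower in HG, and the counts of this and the following marker lists stand beside 28.4% and 11.8% over all genes. The 10 smooth muscle and pericyte markers, a lineage in which Tbx18 stays on, summed to 834.2 to 951.4 FPKM for CON and 1035 to 1296 FPKM for HG (exact permutation p = 0.00794, the smallest that 5 libraries against 5 allow, adjusted p = 0.0291), with 3 genes called in each direction. Acta2, Tagln and Cnn1 were the 3 higher, and Rgs5, Cspg4 and Abcc9 the 3 lower. Most of the sum came from Acta2, with means of 538.2 FPKM for CON and 672.9 FPKM for HG. The 9 cardiomyocyte markers summed to 20358 to 21666 FPKM for CON and 17383 to 20991 FPKM for HG (exact permutation p = 0.0238, adjusted p = 0.0437), with 1 gene higher and 6 lower. None of these fibroblast, mural or cardiomyocyte markers was at 0 in all libraries. The 12 hemoglobin genes summed to 10530 to 19917 FPKM for CON and 8318 to 11652 FPKM for HG (exact permutation p = 0.0238, adjusted p = 0.0437), and with them left out of the fit the same count of 3 epicardial genes was called higher and 1 lower. The 5 red cell markers, which include the embryonic globins Hbe1 and Hbz, went the other way, from 85.2 to 131.1 FPKM for CON and from 200.5 to 515.4 FPKM for HG (exact permutation p = 0.00794, adjusted p = 0.0291). The 5 macrophage markers were also higher in HG, at 18.6 to 23.3 FPKM against 23.4 to 29.0 FPKM (exact permutation p = 0.00794, adjusted p = 0.0291), with 3 genes called higher and 0 lower. The 6 endothelial markers summed to 247.6 to 270.1 FPKM for CON and 256.5 to 279.4 FPKM for HG (exact permutation p = 0.0873, adjusted p = 0.107). The part of these cell types in the values of Tcf21, Tbx18, Aldh1a2 and Upk1b was not tested. Y chromosome genes (3 genes) were above 1 FPKM in 2 of 5 CON and 2 of 5 HG libraries, and with these genes as a covariate 4 epicardial genes were called as before.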

How the data were processed

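Per the labels, total RNA of fetal rat hearts was extracted with TRIzol and made into stranded mRNA libraries. The methods of the study name a cDNA library of pooled RNA, whereas the 10 columns of deposited values differ within each group. The authors deposited FPKM, whose processing the submitters' notes describe with fastp, HISAT2, HTSeq, R 3.2.0 and the mRatBN7.2 build. The authors used DESeq, which takes counts and which FPKM cannot enter.

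The values, as log2(FPKM + 0.1), entered limma 3.58.1 in R 4.3.3 (linear model, moderated statistics with a trend on expression, no covariate, Benjamini-Hochberg adjustment), for genes averaging 0.1 FPKM or more (3483 genes fell below). The script was also run on simulated counts with a single dispersion for all genes. That simulation changed at most a random set of genes between the groups, and does not bear on how the calls depend on scaling. Fold changes on this scale understate those of low genes. Whole reads, within 0.01 read, were recovered for 100% of values, and voom on these reads, added after the data were seen, called 5956 genes against 5836. Sums and shares used Python 3.11.15, pandas 2.3.3 and scipy 1.17.1, with two-sided exact permutation tests for sums.

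The members and lists were chosen with earlier results of these data known. Named genes are the 7 members, the 4 genes of each list with the smallest adjusted p, partners of members, and the 5 genes most like the members. Of these, 1 gene is not reported here. The following were varied 1 at a time: the pseudocount (1 or 0.01), the filter (none or 1 FPKM), the scaling (median-of-ratios factors, quantiles, or without hemoglobin genes), the trend, array weights, a replicate block, Y chromosome genes as a covariate, the ratio of mean FPKM, and each library left out in turn. Of the uroplakins, Upk2 and Upk3a are not analysed here. Promoters came from RefSeq.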

Additional observations from a re-analysis of the deposited data

Results flagged for a closer look

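In Upk3b, HG replicate 3 lay far below the other HG libraries, at 0.4093 FPKM where the next lowest had 1.87 FPKM. The gap was 0.757 of the whole range of the group, above the critical value of 0.71 of Dixon's test for 5 samples. In Gata4, CON replicate 1 lay above the other CON libraries, at 90.46 FPKM where the next highest had 84.7 FPKM, a gap of 0.777 of the range. For 34 genes named or listed here, 68 groups of 5 libraries were examined and these 2 were marked, while chance marks about 1 in 20 groups.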

How the results depend on the processing

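Across 23 alternatives, 3 epicardial genes were called higher in HG in every one, 0 passed the 2-fold threshold, and the number of all genes called lay between 4822 and 6001. The ratio of mean FPKM changes only the fold change and keeps the adjusted p of the main fit. Its count of called genes therefore could not differ, and only the 2-fold threshold was put to a test by it. The count of epicardial genes called lower, 1 (Upk1b), was 0 with the filter at 1 FPKM, which removes Upk1b and likewise left 0 called uroplakins, and ranged from 0 to 1 when single libraries were left out (0 to 1 also for the uroplakins). The log2 fold change of Upk3b was -0.39 and turned to 0.027 without HG replicate 3, the range over single libraries left out being -0.54 to 0.027. Called genes among the other mesothelial genes numbered 4, and 2 with no filter, median-of-ratios factors, quantile normalization or no trend, and 2 to 4 with 1 library left out. In the retinoic acid pathway 5 were called, 3 with hemoglobin genes left out and 3 to 6 with 1 library left out. The cause of these moves was not tested. The 2-fold threshold was passed by 282 genes, and by 64 with a pseudocount of 1, 407 with 0.01, 423 with the ratio of mean FPKM, 426 with voom and 134 with the filter at 1 FPKM. The replicate numbers did not pair the libraries. The deviations of same-numbered CON and HG libraries from their group means had correlations between -0.126 and 0.108, and 0 of 5 CON libraries correlated best with their own number. With the replicate number as a block, 5096 genes were called in place of 5836, and 4 epicardial genes as without it, Upk1b with an adjusted p of 0.0485 (limma). Depth limits Upk1b most, at 7 to 28 reads per library.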

Other observations

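Genes whose deviations from their group means followed the deviations of the 7 epicardial genes most closely over the 10 libraries, out of 11703 genes averaging 1 FPKM or more, were Znf8 (Pearson r = 0.885), Borcs8 (0.882), Drg1 (0.859), Pcdh20 (0.857) and Mzt2b (0.854). These libraries share depth and composition, so that the correlations are a description. None of the 5 is on the mesothelial list. Within HG, replicate 3 was the lowest library in Znf8, Drg1, Pcdh20 and Mzt2b but not in Borcs8. Of the 5 genes, Drg1 was lower in HG (log2 difference -0.15, adjusted p = 0.0362 from limma).

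A closer pattern, chosen after the values were seen, was shown by the surface genes alone. Over the 10 libraries, the mean deviation of Msln, Upk3b and Upk1b was followed by Muc16 (Pearson r = 0.947, Spearman rho = 0.915), by Lrrn4 (r = 0.920, rho = 0.903) and by Bnc1 (r = 0.877, rho = 0.733), which ranked 1, 4 and 11 among 14535 genes. Genes that are on none of the lists filled the ranks between them, such as Hist2h4 (r = 0.926) and Rflna (r = 0.906). The remaining mesothelial and epicardial genes had r from 0.751 in Efemp1 through 0.102 in Gpm6a, -0.144 in Itga4 and -0.447 in Sema3d to -0.598 in Cdh1. Without CON replicate 4 and HG replicate 3, the libraries farthest from the median, r was 0.935 for Muc16, 0.897 for Lrrn4 and 0.652 for Bnc1 over 8 libraries. No p is given, because the genes were picked for this likeness. Without HG replicate 3, the log2 fold changes of Muc16, Lrrn4 and Bnc1 between the groups were 0.06, 0.55 and 0.75, again without a p. Each of these genes had its lowest HG value in that library, so leaving it out could only raise the HG mean. In HG replicate 3 the cardiomyocyte markers summed to 18698 FPKM, the fibroblast markers to 2812 FPKM and the smooth muscle and pericyte markers to 1146 FPKM. Each of these sums lay inside the range of the other HG libraries, whereas its liver marker sum, 1.38 FPKM, was the highest of HG. Why this library was low in the surface genes was not tested.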
